A study of Homo sapiens with 4 samples.

Results

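The genes described here are the interferon regulatory factor 2 binding protein (IRF2BP) family and its direct partners, 5 genes of the 64252 rows of a gene count table. They are IRF2BP2, the target of the short hairpin RNA (shRNA), its paralogs IRF2BPL and IRF2BP1, and the partners IRF2 and VGLL4. They were chosen by name, from knowledge of the family and with earlier results of these data known, and each matched 1 Ensembl identifier. SK-N-BE(2), an established human neuroblastoma line with amplified MYCN, carried either an shRNA against IRF2BP2 (shIRF2BP2, 2 libraries) or a scramble shRNA (2 libraries). All libraries came from this 1 line, and the sequence of the shRNA was not used here. The comparison asked how the transcripts of the family and its partners stood when IRF2BP2 was lowered.

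IRF2BP proteins are nuclear co-regulators of transcription. They share an N-terminal zinc finger, through which they associate with each other, and a C-terminal RING finger, through which they contact transcription factors such as IRF2. IRF2 is a member of the interferon regulatory factor family that often represses interferon-responsive genes. VGLL4 binds the TEAD transcription factors, where it competes with the co-activators YAP1 and WWTR1 (TAZ), and has been described as acting with IRF2BP2 on VEGFA.

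Since the family members are related in sequence, a stretch of coding sequence that they largely share is shown first. The lines give 60 bases of each coding sequence near its 5′ end (GENCODE release 29, GRCh38), aligned without gaps, with capitals at bases that differ from IRF2BP2.
IRF2BP2: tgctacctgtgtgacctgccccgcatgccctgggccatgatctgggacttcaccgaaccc
IRF2BPL: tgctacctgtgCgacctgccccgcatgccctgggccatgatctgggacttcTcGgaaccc
IRF2BP1: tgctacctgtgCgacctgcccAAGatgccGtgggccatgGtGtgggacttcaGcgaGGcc
The stretch covers bases 46 to 105 of the IRF2BP2 coding sequence, 40 to 99 of IRF2BPL and 34 to 93 of IRF2BP1. IRF2BPL differed from IRF2BP2 at 3 of the 60 bases and IRF2BP1 at 10. Within it lies the longest run that the transcripts of IRF2BP2 and IRF2BPL have in common, 39 identical bases. IRF2BP2 and IRF2BP1 shared at most 17 bases in a row, a run outside this stretch, and IRF2BPL and IRF2BP1 at most 21, within it. Over the aligned parts of the whole coding sequences, IRF2BP2 was 73.1% identical to IRF2BPL and 68.3% identical to IRF2BP1. The read length and the treatment of reads that fit several places are not known from the labels, so a small exchange of reads between IRF2BP2 and IRF2BPL at this stretch was not tested.

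Total counts were between 30847699 and 34684651 per library. The 7 neuroblastoma markers listed, among them PHOX2A, HAND2, GATA3, ISL1 and MYCN, were present in every library, with summed levels, in CPM (counts scaled to library size), of 8536 and 8651 in the shIRF2BP2 libraries, against 7472 and 7790 CPM in the scramble libraries. Most of these sums was MYCN, with 7067 and 7167 CPM in the shIRF2BP2 libraries, against 5355 and 5511 CPM in the scramble libraries. Of the 7 markers, 1 was called higher, MYCN, and 5 were called lower with the shRNA, so the higher sums do not describe the other markers. The 5 leukocyte markers summed to between 3.47 and 6.96 CPM and the 5 epithelial markers to between 2.50 and 4.39 CPM, with CD3E, LYZ and KRT5 at 0 in all libraries. The 5 fibroblast markers summed to 221 and 219 CPM in the shIRF2BP2 libraries, against 300 and 286 CPM in the scramble libraries, with 1 higher and 3 lower. The part of these marker changes in the results on the family was not tested. In bulk RNA, fewer cells with a transcript and less of it per cell cannot be told apart. A gene is called here where the adjusted p of edgeR's quasi-likelihood test, Benjamini-Hochberg over all genes tested, was under 0.05.

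All 5 genes passed the filter on low counts, and 3 of them were called, against 42.0% of the 19093 genes tested. IRF2BP2 was lower, and IRF2BPL and VGLL4 were higher, where 20.6% of all genes tested were called higher and 21.4% lower. IRF2BP1 and IRF2 were not called. Tested against a change of 1.5-fold in place of no change, IRF2BP2 and IRF2BPL passed, where 8.48% of all genes tested did. IRF2BP2 was on the lower side, with 5.63% of all genes tested, and IRF2BPL on the higher side, with 2.85%. The libraries of the groups did not overlap for the same 3 genes that were called, where this held for 70.4% of all genes tested. With so many genes called, the count of members called says little about the family, and the sizes below carry the description.

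**Figure D1:**
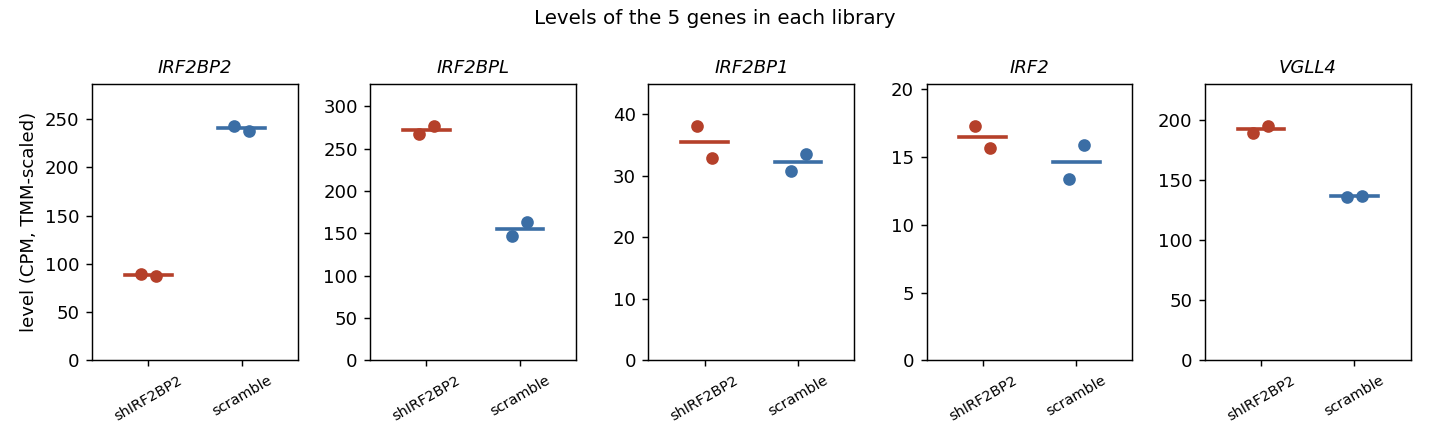
Levels of the 5 genes in CPM (vertical axis, each panel from 0 on its own scale) in the shIRF2BP2 libraries (red) and the scramble libraries (blue). Points are libraries and bars are group means. The groups stand apart for IRF2BP2, IRF2BPL and VGLL4 and overlap for IRF2BP1 and IRF2.

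IRF2BP2, the co-regulator that the shRNA targets, is encoded on the minus strand of chromosome 1, at 234604269 to 234609525 in GRCh38 (ENSG00000168264), with 4724 bases of merged exons. It had 2865 and 2803 reads in the shIRF2BP2 libraries, against 8425 and 7320 reads in the scramble libraries. Scaled to library size these were 89.6 and 87.5 CPM in the shIRF2BP2 libraries, against 243 and 238 CPM in the scramble libraries. Both shIRF2BP2 libraries lay far below both scramble libraries, and the replicates of a group differed by little. The level with the shRNA was 36.8% of that with scramble, with a 95% interval of 0.347 to 0.391 for the fold (log2 fold change -1.44, standard error 0.04, edgeR adjusted p = 5.87e-10). The target was far from the most changed gene. Of the 10382 genes tested with a mean of at least 10 CPM, 202 (1.95%) had a larger change in either direction, and 136 fell further than IRF2BP2. Of all 19093 genes tested, low ones included, 1229 had a larger change in either direction. By the size of its p-value, 25 of all genes tested came before it. The antisense gene ENSG00000228830, which shares 693 exonic bases with IRF2BP2 on the opposite strand, had 0 reads in every library.

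IRF2BPL, a paralog with a long glutamine-rich stretch that is known for its part in neurodevelopmental disease, is on the minus strand of chromosome 14, at 77024543 to 77028699 (ENSG00000119669) in a single exon of 4157 bases. It had 267 and 277 CPM in the shIRF2BP2 libraries, against 147 and 163 CPM in the scramble libraries. Both shIRF2BP2 libraries were above both scramble libraries. The rise was 1.75-fold, with a 95% interval of 1.62 to 1.90 (log2 fold change 0.81, standard error 0.05, edgeR adjusted p = 4.65e-07; adjusted p = 0.00238 against a change of 1.5-fold). Among the genes with a mean of at least 10 CPM, 292 (2.81%) rose further, and of all genes tested 3356 had a larger change in either direction. The antisense gene ENSG00000273729, which shares 614 exonic bases with IRF2BPL, had between 1.70 and 2.65 CPM, so reads assigned to it were few beside those of IRF2BPL, although the kit does not mark strand.

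IRF2BP1, the remaining paralog, is on the minus strand of chromosome 19, at 45883607 to 45886170 (ENSG00000170604), also in a single exon, of 2564 bases. It had 38.1 and 32.9 CPM in the shIRF2BP2 libraries, against 30.7 and 33.6 CPM in the scramble libraries. The groups overlapped, since shIRF2BP2 replicate 2 was below scramble replicate 2. The log2 fold change of 0.14 missed the threshold (edgeR adjusted p = 0.223), with a 95% interval of 0.965 to 1.27 for the fold. That interval lies below the interval of IRF2BPL, and the difference between the paralogs was not itself tested.

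The family as a whole was described by dividing each CPM by the length of merged exons, so that levels of different genes can be set side by side, and summing the 3 genes. The summed level was 98.1 and 97.9 CPM per kb in the shIRF2BP2 libraries, against 98.7 and 103 CPM per kb in the scramble libraries. The groups were close in sum, with a change of -2.74% in the mean, while the make-up of the sum was turned over. IRF2BP2 gave 19.3% and 18.9% of the sum in the shIRF2BP2 libraries, against 52.0% and 49.0% in the scramble libraries. IRF2BPL gave 65.5% and 68.0% in the shIRF2BP2 libraries, against 35.9% and 38.2% in the scramble libraries. IRF2BP1 gave 15.2% and 13.1% in the shIRF2BP2 libraries, against 12.1% and 12.7% in the scramble libraries. IRF2BPL was thus the most abundant family transcript with the shRNA, and IRF2BP2 with scramble. In CPM per kb, IRF2BP2 dropped by 32.1 and IRF2BPL was higher by 28.1, which is 87.3% of the IRF2BP2 difference, while IRF2BP1 was higher by 1.32. An exact permutation test of the summed level over the libraries, two-sided, gave p = 0.333, the smallest value that 2 libraries against 2 allow, so this test could not pass 0.05. The sum depends on the lengths used, and without division by length the log2 ratio of the sums was -0.11 in place of -0.04.

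**Figure D2:**
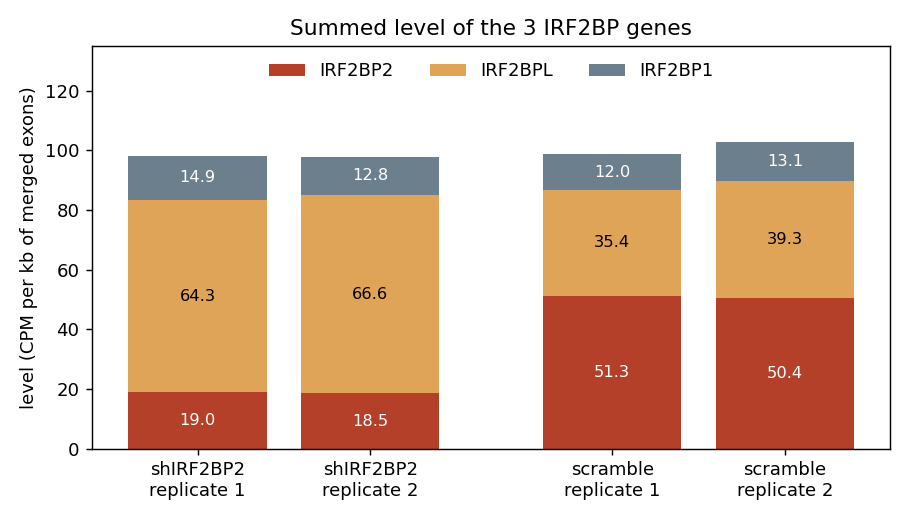
Stacked levels of IRF2BP2, IRF2BPL and IRF2BP1 in CPM per kb of merged exons (vertical axis) in each library. The full height stays between 97.9 and 103 CPM per kb while the IRF2BP2 part is 19.0 and 18.5 in the shIRF2BP2 libraries, against 51.3 and 50.4 in the scramble libraries.

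The ratio of the 2 larger paralogs needs no scaling between libraries. IRF2BPL reads per IRF2BP2 read were 2.98 and 3.16 in the shIRF2BP2 libraries, against 0.607 and 0.686 in the scramble libraries. Per kb the ratios were 3.39 and 3.59 in the shIRF2BP2 libraries, against 0.690 and 0.779 in the scramble libraries. The order of the 2 genes was therefore reversed between the groups in every library, on either scale.

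The promoters of IRF2BPL and IRF2BP2 are shown as sequence only, and a link of their letters to the changes in level was not tested. The lines give the 250 bases before an annotated start (RefSeq, GRCh38.p14, minus strand, read 5′ to 3′), at chr14:77028709-77028958 for IRF2BPL and chr1:234609526-234609775 for IRF2BP2, with capitals at matches to the motifs named after them.
IRF2BPL: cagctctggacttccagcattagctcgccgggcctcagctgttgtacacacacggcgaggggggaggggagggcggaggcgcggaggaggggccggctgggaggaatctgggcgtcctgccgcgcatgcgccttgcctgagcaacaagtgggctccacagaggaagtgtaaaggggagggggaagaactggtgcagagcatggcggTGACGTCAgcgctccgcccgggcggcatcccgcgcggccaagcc
IRF2BP2: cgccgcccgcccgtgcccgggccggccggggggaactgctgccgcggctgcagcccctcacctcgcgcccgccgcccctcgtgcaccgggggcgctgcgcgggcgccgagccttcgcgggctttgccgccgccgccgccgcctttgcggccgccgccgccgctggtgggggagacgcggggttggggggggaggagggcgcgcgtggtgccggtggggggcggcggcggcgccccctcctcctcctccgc
Windows of 300 bases, from 250 before to 50 after a start, were searched on both strands for TGACGTCA (the cAMP response element), the IRF core (paired GAAA boxes of the interferon-stimulated response element), GGAATG (a TEAD site) and GGAAAA (an NFAT core). The table held windows for 4 of the 5 genes (IRF2 was not matched). The IRF2BPL window held 1 cAMP response element, overlapping no other motif, whose first base lies 44 bases before the start, and 1.85% of the 35116 promoter windows hold that motif. The IRF2BP2 window shown, with a GC content of 84.0%, held none of the 4 motifs. A second IRF2BP2 window, at another annotated start further upstream (chr1:234610129-234610428), held 1 NFAT core, as 24.0% of all windows do. The bases shown for IRF2BP2 thus lie downstream of that other start. The IRF2BP1 window held none. Of 5 windows of VGLL4, 1 held an IRF core, present in 3.57% of all windows, and an NFAT core. The TEAD site was in none of these windows and in 14.0% of all windows. The motifs were chosen with the results known, and a match is a description of letters only.

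VGLL4, the TEAD-binding partner, is on the minus strand of chromosome 3, at 11556070 to 11771350 (ENSG00000144560), with 7236 bases of merged exons. It had 189 and 195 CPM in the shIRF2BP2 libraries, against 136 and 137 CPM in the scramble libraries. Both shIRF2BP2 libraries were above both scramble libraries, and the spread within a group was small. The rise was 1.40-fold with a 95% interval of 1.32 to 1.49 (log2 fold change 0.49, standard error 0.04, edgeR adjusted p = 1.76e-06), so it was called but stayed under 1.5-fold, and 973 genes (9.37%) with a mean of at least 10 CPM rose further. VGLL4 shares 1596 exonic bases with ATG7, an autophagy gene on the opposite strand, and reads of the overlap cannot be told apart. ATG7 had 30.6 and 26.6 CPM in the shIRF2BP2 libraries, against 28.4 and 30.5 CPM in the scramble libraries, and was not called (edgeR adjusted p = 0.763). The level of VGLL4 was between 4.50 and 7.33 times that of ATG7 in reads, over the 4 libraries.

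IRF2, the interferon regulatory factor after which the family is named, is on the minus strand of chromosome 4, at 184387713 to 184474580 (ENSG00000168310), with 3116 bases of merged exons. It had the fewest reads of the 5 genes, 552 and 504 in the shIRF2BP2 libraries, against 467 and 490 in the scramble libraries. Its level was 17.3 and 15.7 CPM in the shIRF2BP2 libraries, against 13.4 and 15.9 CPM in the scramble libraries. The groups overlapped, and counting alone gives an SD of between 4.26% and 4.63% of these counts. The log2 fold change of 0.17 missed the threshold (edgeR adjusted p = 0.287), with a 95% interval of 0.939 to 1.34 for the fold.

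Compared per length, the order of the 5 genes was not the same in the groups. In the shIRF2BP2 libraries it was IRF2BPL (65.4 ± 1.64 CPM per kb, SD, n = 2), VGLL4 (26.5 ± 0.61), IRF2BP2 (18.7 ± 0.307), IRF2BP1 (13.9 ± 1.43) and IRF2 (5.29 ± 0.345). In the scramble libraries it was IRF2BP2 (50.9 ± 0.651 CPM per kb, SD, n = 2), IRF2BPL (37.4 ± 2.74), VGLL4 (18.9 ± 0.104), IRF2BP1 (12.5 ± 0.798) and IRF2 (4.72 ± 0.567). No neighbours in either order overlapped in their libraries. IRF2BP2 thus stood first with scramble and below IRF2BPL and VGLL4 with the shRNA. Among tested genes with an annotated length, 85.4% had a lower level per kb than IRF2BP2 in the shIRF2BP2 libraries, against 96.0% in the scramble libraries. For IRF2BPL the shares were 97.0% in the shIRF2BP2 libraries and 94.0% in the scramble libraries.

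**Figure D3:**
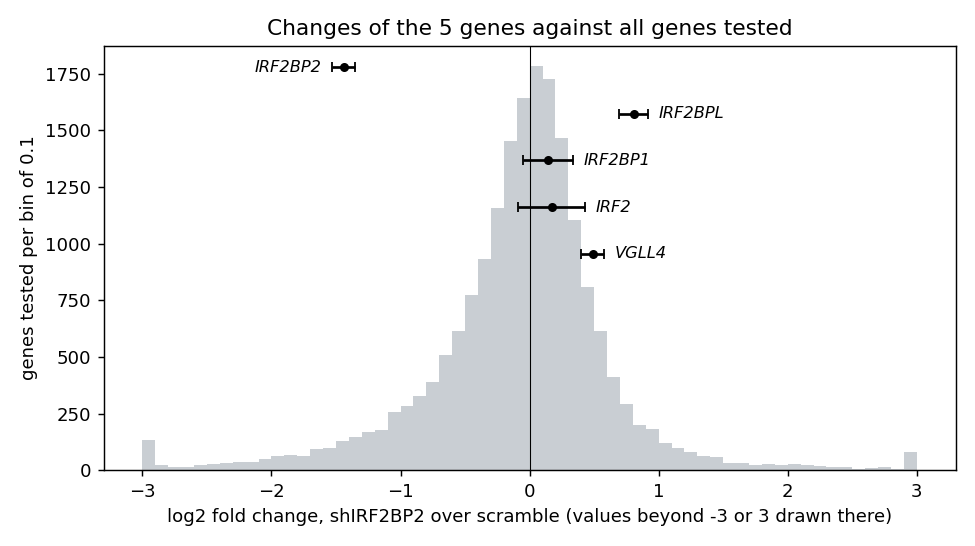
Log2 fold changes (horizontal axis, shIRF2BP2 over scramble) of the 5 genes as points with 95% intervals, drawn at arbitrary heights over the histogram of all 19093 genes tested (vertical axis, genes per bin, with values beyond -3 or 3 drawn at the ends). IRF2BP2 is at -1.44, where 1229 of all genes tested had a larger change in either direction, and IRF2BPL at 0.81, where 3356 did. The intervals of IRF2BP1 and IRF2 include 0.

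The genes whose levels over the 4 libraries were most like those of IRF2BP2 were sought among 9564 other protein-coding genes with a mean of at least 10 CPM, by the root mean square difference of log2 CPM after centring each gene. The nearest was SGCB, a sarcoglycan of the dystrophin complex, at a difference of 0.0144. It had 26.2 and 25.8 CPM in the shIRF2BP2 libraries, against 72.0 and 68.8 CPM in the scramble libraries. MTSS1 (0.0263), the adducin gene ADD3 (0.0264), PLEKHG4B (0.0281) and YPEL2 (0.0286) came next. Nearest to IRF2BPL was AGTRAP, a protein that binds the angiotensin receptor, at a difference of 0.0158. It had 47.8 and 49.8 CPM in the shIRF2BP2 libraries, against 26.4 and 28.6 CPM in the scramble libraries. FAM222B (0.0181), the dipeptidyl peptidase gene DPP9 (0.0203), CCDC137 (0.0206) and SH3BGRL3 (0.0220) followed. With 2 groups of 2 libraries, likeness of this kind mainly ranks genes by the closeness of their fold change.

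Genes next to the members on the chromosome were counted to see how the loci around them stood. Of 54 tested genes that start within 500 kb of a member's start, 21 (38.9%) were called, with 11 higher and 10 lower, near the 42.0% of all genes tested. Around IRF2BP2 4 genes were tested, of which COA6, an assembly factor of cytochrome c oxidase, rose (log2 fold change 0.51) and TARBP1 fell (-0.44). Around IRF2BPL 7 of 16 were called, with AHSA1, a co-chaperone of HSP90, higher (0.44) and the membrane protein gene TMEM63C lower (-0.72). Around IRF2BP1 9 of 25 were called, with the neuronal splicing factor gene NOVA2 lower (-2.57) and POLR1G, a subunit of RNA polymerase I, higher (0.92). Around IRF2 2 of 6 were called, among them the centromere gene CENPU, which was lower (-0.22). CENPU was not called without shIRF2BP2 replicate 2 (edgeR adjusted p = 0.108) or without scramble replicate 1 (edgeR adjusted p = 0.0883). Around VGLL4 1 of 3 was called, SYN2, a synaptic vesicle protein gene, which fell (-0.56).

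Of the other interferon regulatory factors, 1 of the 6 tested (16.7%) was called, against 42.0% of all genes tested. Of 8 other IRF genes, 6 were tested and IRF4 and IRF8, factors of immune cells, had 0 reads in every library. Only IRF5 was called, as lower, with 2 and 6 reads in the shIRF2BP2 libraries, against 19 and 14 reads in the scramble libraries (log2 fold change -1.97, edgeR adjusted p = 0.0376). That call rested on few reads and was lost on leaving out any library, with edgeR adjusted p between 0.0584 and 0.262. Its log2 fold change was -2.93 without shIRF2BP2 replicate 2 and -1.40 without shIRF2BP2 replicate 1. IRF9, at -0.62 in log2, was called without shIRF2BP2 replicate 2 only (edgeR adjusted p = 0.0222, log2 fold change -1.01). IRF1, an activator that recognises the same DNA element as IRF2, had 2.72 and 3.43 CPM in the shIRF2BP2 libraries, against 1.73 and 3.25 CPM in the scramble libraries (edgeR adjusted p = 0.469), and its log2 fold change of 0.31 turned to -0.07 without scramble replicate 1. The median log2 fold change of the list was 0.22, against -0.01 for all genes tested.

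Among the TEAD factors and their cofactors, with which VGLL4 works, YAP1 had the largest change of the 6 genes that passed the filter on low counts. YAP1, the Hippo pathway co-activator, had 3.53 and 4.93 CPM in the shIRF2BP2 libraries, against 0.748 and 0.879 CPM in the scramble libraries (5.19-fold, log2 fold change 2.38, edgeR adjusted p = 5.32e-05). Both shIRF2BP2 libraries were above both scramble libraries at a low level throughout. TEAD1, a DNA-binding partner of YAP1 and VGLL4 and the TEAD gene with the most reads here, fell to 218 and 215 CPM in the shIRF2BP2 libraries, against 279 and 275 CPM in the scramble libraries (log2 fold change -0.36, edgeR adjusted p = 2.22e-05). TEAD2 was higher, with 63.0 and 67.7 CPM in the shIRF2BP2 libraries, against 52.7 and 54.8 CPM in the scramble libraries (0.28, edgeR adjusted p = 0.00289). Of 9 genes in this list 6 were tested, of which 2 rose, 1 fell and 3 were uncalled, so that 3 of 6 were called, against 42.0% of all genes tested, and the median log2 change was 0.07. WWTR1, the paralog of YAP1, had 25.3 and 24.9 CPM in the shIRF2BP2 libraries, against 23.6 and 20.8 CPM in the scramble libraries. TEAD4 missed the threshold (log2 fold change -0.37, edgeR adjusted p = 0.062) but was called lower under upper quartile scaling (-0.42, edgeR adjusted p = 0.0384). Without scramble replicate 1, the log2 fold change was 0.28 for WWTR1 and -0.51 for TEAD4. VGLL1 and VGLL2 had 0 reads in every library, and VGLL3 had 14 and 3 reads in the shIRF2BP2 libraries and 0 in each scramble library, and did not pass the filter on low counts. With no such filter VGLL3 was called higher (edgeR adjusted p = 0.0460), and it missed the threshold in the fits without scramble replicate 1 (edgeR adjusted p = 0.0926) and without scramble replicate 2 (edgeR adjusted p = 0.0923).

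Reported partners of IRF2BP2 and the corepressors it is linked to included 2 genes called higher and 2 called lower. NFATC2, the NFAT factor that IRF2BP2 is known to repress in lymphocytes, had 2 and 9 reads in the shIRF2BP2 libraries, against 4 and 0 reads in the scramble libraries, and was not tested. CBFA2T3 (ETO2), with which IRF2BP2 works in erythroid cells, had at most 2 reads in any library. Its paralog CBFA2T2 fell to 78.5 and 76.3 CPM in the shIRF2BP2 libraries, against 127 CPM in each scramble library (log2 fold change -0.71, edgeR adjusted p = 1.42e-07). Of 8 genes 6 were tested, of which 2 rose, 2 fell and 2 were uncalled, which is 66.7% called against 42.0% of all genes tested, and the median log2 change was 0.04. The small changes of NCOR1 (0.14, edgeR adjusted p = 0.0160) and RUNX1T1 (-0.36, edgeR adjusted p = 0.0286) were called under some settings and not others. Without shIRF2BP2 replicate 1 neither was called (edgeR adjusted p = 0.151 for NCOR1, and 0.0587 for RUNX1T1 at a log2 fold change of -0.40), and RUNX1T1 was also lost without shIRF2BP2 replicate 2 (edgeR adjusted p = 0.150) and without scramble replicate 2 (edgeR adjusted p = 0.242). With all libraries kept, NCOR1 was not called under upper quartile scaling (edgeR adjusted p = 0.0959), among genes with a mean of 10 CPM or more (edgeR adjusted p = 0.0701) or by DESeq2 (adjusted p = 0.0607). RUNX1T1 was not called with no filter on low counts (edgeR adjusted p = 0.0678) or by DESeq2 (adjusted p = 0.0765).

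Genes reported as targets of IRF2BP2 or IRF2 in other cells were called at a share near that of all genes, 37.5% of those tested against 42.0%. VEGFA, the angiogenic factor on which VGLL4 and IRF2BP2 have been described together, had 71.6 and 73.2 CPM in the shIRF2BP2 libraries, against 41.4 and 41.3 CPM in the scramble libraries (1.75-fold, edgeR adjusted p = 7.25e-07). KLF2, a Krüppel-like factor that IRF2BP2 is known to promote in macrophages, had 6.03 and 5.12 CPM in the shIRF2BP2 libraries, against 1.21 and 1.33 CPM in the scramble libraries (4.38-fold, edgeR adjusted p = 2.45e-05). CASP4, an inflammatory caspase, fell to 0.813 and 0.905 CPM in the shIRF2BP2 libraries, against 2.73 and 2.08 CPM in the scramble libraries (log2 fold change -1.49, edgeR adjusted p = 0.00269). For GSDMD, the pore-forming gasdermin that IRF2 activates in endothelial and myeloid cells, the change of -0.78 in log2 missed the threshold (edgeR adjusted p = 0.0653). GSDMD was called without scramble replicate 2 (edgeR adjusted p = 0.0356), as was the peptide transporter gene TAP2, as higher, without scramble replicate 1 (edgeR adjusted p = 0.00430). For FASTKD2, which IRF2BP2 is reported to repress in breast cancer cells, the log2 change was 0.10 (edgeR adjusted p = 0.380). Of 10 genes 8 were tested, of which 2 rose, 1 fell and 5 were uncalled, and the median log2 change was 0.11.

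A published signature of YAP and TEAD target genes, the readout on which VGLL4 and YAP1 act in opposite ways, had most of its genes called. Of 22 genes 21 were tested, of which 12 rose, 4 fell and 5 were uncalled, which is 76.2% called against 42.0% of all genes tested, with a median log2 fold change of 0.51 against -0.01. CCN1, a matricellular protein gene, had 9.63 and 8.68 CPM in the shIRF2BP2 libraries, against 2.76 and 2.31 CPM in the scramble libraries (3.60-fold, edgeR adjusted p = 1.16e-05). AMOTL2, an angiomotin that binds YAP1, had 13.2 and 12.2 CPM in the shIRF2BP2 libraries, against 4.69 and 3.29 CPM in the scramble libraries (3.17-fold). IGFBP3, which binds insulin-like growth factors, had 101 and 94.3 CPM in the shIRF2BP2 libraries, against 3.05 and 2.02 CPM in the scramble libraries (log2 fold change 5.25, edgeR adjusted p = 3.67e-08). CCN2 (2.46) and ANKRD1 (2.96), named after their values were seen, rose as well, at low levels of at most 4.62 CPM in any library. NT5E, the ecto-nucleotidase CD73, went the other way (log2 fold change -2.48, edgeR adjusted p = 3.14e-11). It fell to 26.1 and 25.6 CPM in the shIRF2BP2 libraries, against 143 and 145 CPM in the scramble libraries. AXL, also named after its values were seen, was called lower as well (-2.39, edgeR adjusted p = 0.00939). It had few reads, 8 and 2 in the shIRF2BP2 libraries, against 33 and 22 in the scramble libraries. In a refit limited to genes with a mean of 10 CPM or more, 9 genes of the list were tested. Of these, 3 were called higher, 3 were called lower and the median log2 fold change was -0.05. FJX1 was called higher with all genes tested (0.14, edgeR adjusted p = 0.0205) but not in that refit (0.10, edgeR adjusted p = 0.0827). Without shIRF2BP2 replicate 2, 11 genes rose and only NT5E fell. The list was chosen with earlier results of these data known, so its share called cannot stand as a test. The counts describe the list, and whether it differs from other genes was not tested.

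**Figure D4:**
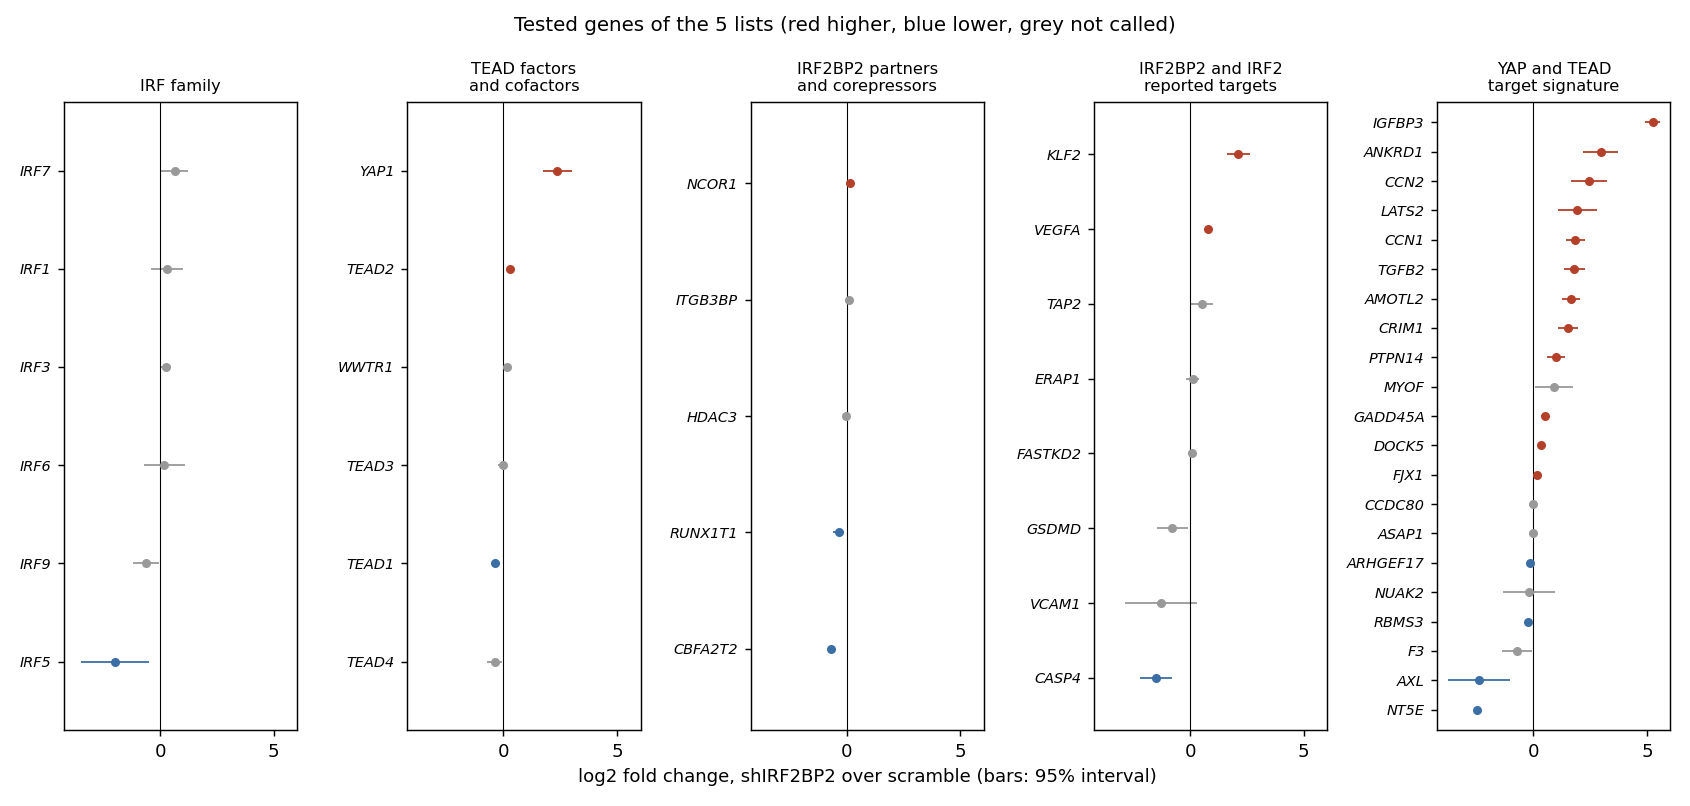
Log2 fold changes (horizontal axis, shIRF2BP2 over scramble) with 95% intervals of tested genes in the 5 lists, 1 panel a list and 1 row a gene. Red marks genes called higher, blue genes called lower and grey genes not called. In all, 12 of 21 YAP and TEAD target genes are red, and YAP1 and KLF2 stand apart in their panels.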

How the data were processed

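Raw counts per gene, 1 column per library, were used as deposited by the authors, without pooling. Reads were aligned with HISAT2 2.2.0 to hg38, per the submitters' processing notes. Which program counted the reads, and over which gene models, is not given in the sources used here. Libraries were made from TRIzol-extracted total RNA with the TruSeq RNA kit, which does not mark strand, per the labels' protocols. Columns abbreviated NC were taken as the scramble libraries, the other group of the series, by the number in their names.

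Symbols were matched for 40995 of 64252 identifiers. Lengths and coordinates came from GENCODE release 29 (GRCh38), which held 56591 of them. Tests used edgeR 4.0.16 under R 4.3.3 on those counts (filterByExpr, TMM scaling with factors between 0.996 and 1.00, robust quasi-likelihood F-test, two-sided, Benjamini-Hochberg over 19093 genes), and against 1.5-fold with glmTreat. CPM values are TMM-scaled. Standard errors are the absolute log2 fold change over the square root of F, and 95% intervals use the test's degrees of freedom. Counting errors assume independent reads and cover counting only. The procedure was tested on simulated data. Alternatives used limma 3.58.1 and DESeq2 1.42.0.

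The member genes and lists were chosen with earlier results of these data known. Named genes were the 5 members, up to 4 called genes of each list and up to 2 called neighbours of each member by smallest p, the 5 nearest patterns of IRF2BP2 and IRF2BPL, and VEGFA, GSDMD, NFATC2, YAP1, TEAD1 and IRF1; others named were chosen after their values were seen. Some genes that this rule names are not reported here, although list counts and sums include them. Replicates within a group differed beyond sampling noise (chi-square per degree of freedom 5.67 for shIRF2BP2 and 7.66 for scramble). The labels do not say whether replicates were separate cultures. The p-values then reflect only how far these libraries spread, which may be technical.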

Additional observations from a re-analysis of the deposited data

How the results depend on the processing

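The results were recomputed under 13 alternatives (other scalings, filters, tests and spread estimates, the replicate block, and each library left out). The direction and the call of all 5 members held in each: the log2 fold change lay between -1.49 and -1.42 for IRF2BP2, between 0.74 and 0.89 for IRF2BPL and between 0.44 and 0.52 for VGLL4, and IRF2BP1 (0.04 to 0.25) and IRF2 (0.06 to 0.30) were called in none. Genes called beyond 1.5-fold numbered 1619, against 916 under the filter at 10 CPM on the mean and 973 with DESeq2. Called genes of the IRF list numbered 1, but 0 with no filter on low counts, under the filter at 10 CPM, with DESeq2 and with the replicate block, and 0 to 1 on leaving out a library. The TEAD list had 3 to 5 called, and the partner list 2 to 4, on leaving out a library, and the partner list had 2 called with DESeq2. Under the filter at 10 CPM the target list had 1 called of 3 tested, and the YAP and TEAD signature 6 of 9 tested. The log2 ratio of the summed IRF2BP level was -0.09 with upper quartile scaling and -0.11 without division by length, and the IRF2BP2 share of the sum then differed by -33.9 percentage points, shIRF2BP2 minus scramble, in place of -31.4. Among the genes named by the rule above, IRF1 alone changed sign, with a log2 fold change of -0.07 without scramble replicate 1 and 0.83 without scramble replicate 2. The cause of these shifts was not tested. The labels do not say that a replicate number marks a shared culture, and with 2 pairs the libraries were not treated as paired. Deviations of same-numbered libraries correlated at 0.0604 over all genes tested and at 0.311 over genes with a mean of 10 CPM or more. With the number as a block, the log2 fold change of IRF2BP2 was -1.44 (edgeR adjusted p = 3.11e-08), and 7902 genes were called in place of 8016. Of the genes named by that rule, only IRF5 changed its call. Few reads limit the precision of genes such as IRF5, with 2 to 19 reads a library.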
